A study of Bos taurus with 28 samples.

Results

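Mammary glands that read very low with 1 probe set for BOLA-DQB1, a class II histocompatibility gene, were set against the other glands of the same study. The glands were chosen by the measured value of that probe set: every array below -2 on the log2 scale in it was taken, 6 of the 28 arrays, which are called the low arrays here. The other 20 compared arrays were at or above -2. A further 2 arrays, AA 2 and AA 9, were left out by the rule, so 26 arrays entered the comparison. The samples were surgical biopsies of 1 gland per cow from Holstein-Friesian dairy cows in mid-lactation, all on the control diet, a mixed ration of silages and concentrates. An Affymetrix Bovine Genome Array was run for every cow, so each array is a separate animal, named here by genotype and number. The study compared genotypes of DGAT1, the enzyme of the last step of triacylglycerol synthesis: AA cows carry alanine on both alleles, KA cows carry lysine and alanine, and KK cows carry lysine on both. The low arrays were 2 of the 9 compared AA cows, 3 of the 13 KA cows and 1 of the 4 KK cows. The ages of the cows are not given in the sources used here.

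Class II histocompatibility molecules are pairs of an alpha and a beta chain that show peptides from outside the cell to helper T cells, and they are made mainly by macrophages, dendritic cells and B cells. In cattle the chains that reach the cell surface are the DR pair, of a nearly invariant DRA chain and a polymorphic DRB3 chain, and the DQ pairs, whose alpha and beta chains are both polymorphic. The number of DQ genes differs between cattle haplotypes, and some haplotypes carry duplicated DQA and DQB genes. An oligonucleotide probe set is built on 1 reference sequence, so its signal can depend on the allele as well as on the RNA level. Which DQ alleles these cows carry was not analysed here, and whether they match the probes was not tested. In a biopsy, fewer cells of a type and less RNA per cell cannot be told apart.

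Each value is a log2 signal relative to a baseline of its own probe set, so values compare arrays within a probe set and never one probe set with another. The signal over background is unknown. Where a class II gene has several probe sets they are told apart by letters, from A for the lowest difference of low minus other arrays, and the heat map of class II probe sets pairs each letter with its identifier. In BOLA-DQB1 A, the probe set of the rule, the low arrays read -4.42 in KK 3, -4.35 in AA 4, -4.27 in AA 7, -4.16 in KA 6, -4.15 in KA 8 and -3.92 in KA 3. The other 20 arrays ran from -1.13 to 1.20 with a median of 0.47. The array nearest the limit of -2 from below was KA 3 at -3.92, the nearest from above was AA 3 at -1.13, and none lay between. These values chose the arrays and are a description only. Of the arrays left out, AA 2 read 0.45 and AA 9 read 3.60.

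The low arrays were spread over the series. Among array numbers 29 to 42 they were 3 of 13 compared arrays, and among numbers 43 to 56 they were again 3 of 13. They did not stand apart in overall spread: the SD over all probe sets was 0.218 to 0.288 in the low arrays and 0.213 to 0.348 in the others, against 0.780 to 0.861 in the arrays left out. The actin control probes at the 3' end minus those at the 5' end, a measure of RNA quality, gave 0.16 to 0.41 with a median of 0.24 in the low arrays and -0.28 to 0.46 with a median of 0.04 in the others. The part of this difference in the results that follow was not tested. The same measure for GAPDH gave medians of -0.17 and -0.14.

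The 6 arrays were low in some DQ probe sets and not in others, which goes against the description of these glands as lacking a DQ signal. Of the 13 probe sets listed to DQ genes, 12 name 1 gene and 1 is listed with several. In the fit across all 24016 probe sets, limma with Benjamini-Hochberg adjustment put 6 probe sets (0.025%) below the threshold of 0.05, all lower in the low arrays, and all 6 are DQ probe sets. Since the rule used BOLA-DQB1 and the DQ chains are its partners and near copies, these counts and the values of the DQ probe sets are given as a description with no test.

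BOLA-DQA2 A, for an alpha chain, followed the rule's probe set most closely. It read -4.44 in AA 4, -4.11 in KK 3, -3.95 in KA 8, -3.86 in AA 7, -3.80 in KA 6 and -3.79 in KA 3. The other arrays ran from -0.68 to 1.61 with a median of 0.34, so the groups were far apart, with a mean difference of -4.30 (SE 0.24). BOLA-DQA2 B read -2.37 to -2.0 in 5 of the low arrays and -0.57 in KA 3. Its other arrays ran from -0.44 to 1.26. KA 3 thus lay only just below the lowest of them, and the mean difference was -2.05 (SE 0.21). In BOLA-DQA2 C the groups overlapped, at -0.36 to 0.12 in the low arrays and -0.30 to 0.46 in the others.

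In the next pair of BOLA-DQB1 probe sets, 1 other array read as low as the low arrays. BOLA-DQB1 B read -4.44 in AA 7, -4.44 in KA 3, -4.29 in KK 3, -3.96 in KA 6, -3.85 in KA 8 and -2.29 in AA 4. Among the other arrays KA 10 read -4.17 and KA 12 read -1.79, while the median was 0.10. BOLA-DQB1 C gave a like picture, with -3.31 to -2.07 in the low arrays and -3.45 in KA 10. The mean differences were -3.64 (SE 0.45) and -2.69 (SE 0.38). KA 10 was therefore low in these probe sets while it read 0.06 in the rule's own probe set.

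For BOLA-DQA1, another alpha chain gene, the shift was smaller. BOLA-DQA1 A read -1.42 to -0.94 in the low arrays and -1.16 to 1.15 in the others, with KA 12 the lowest of these, and the mean difference was -1.25 (SE 0.23). BOLA-DQA1 B read -0.98 to -0.03 against -1.40 to 1.18, a mean difference of -0.73 (SE 0.25). Over all 24016 probe sets, the groups did not overlap in 3 lower ones (0.0125%), BOLA-DQB1 A, BOLA-DQA2 A and BOLA-DQA2 B, and in 0 higher ones.

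**Figure D1:**
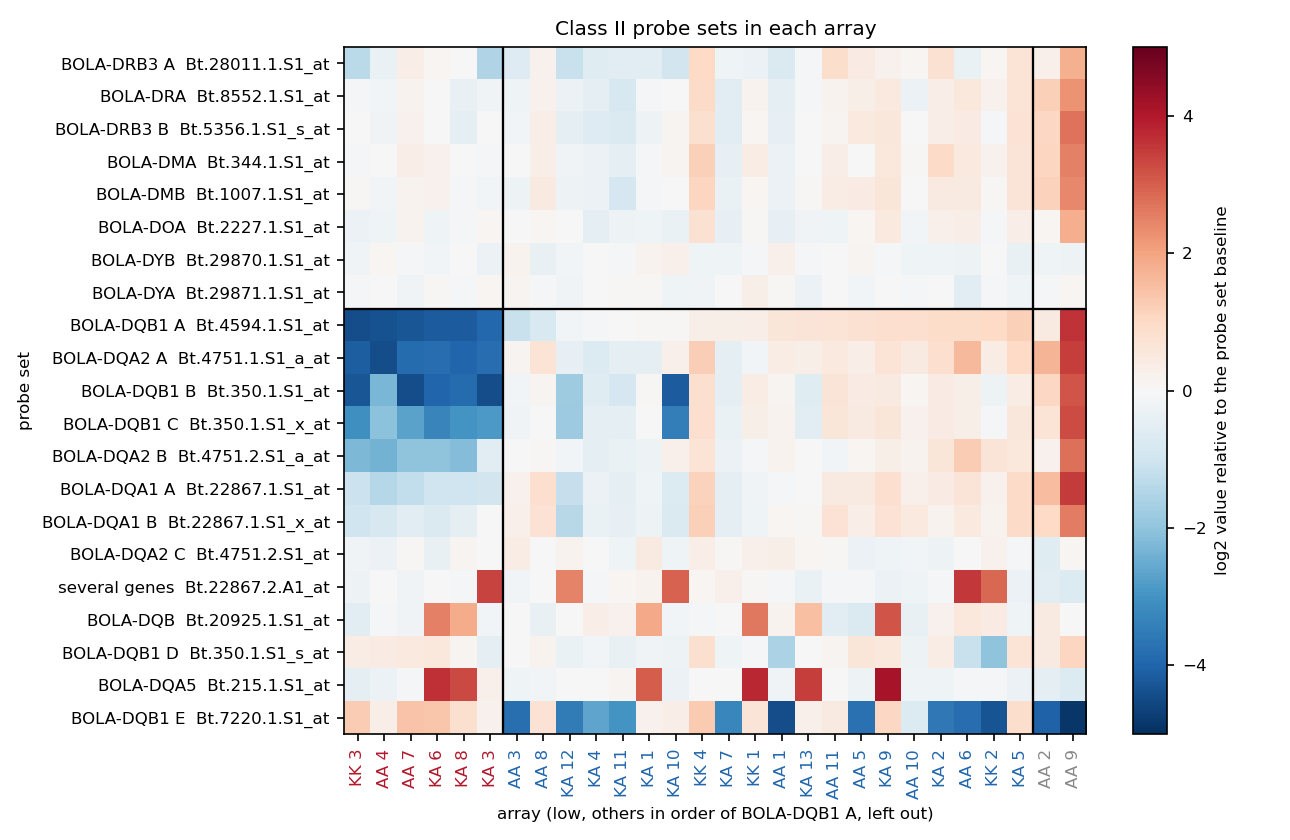
Heat map of the 21 class II probe sets (rows, with the 13 DQ probe sets below the horizontal line) in all 28 arrays (columns: 6 low, 20 others, 2 left out); colour is the log2 value relative to the baseline of the probe set. The low arrays are dark blue in 4 DQ probe sets and near white in BOLA-DRA, BOLA-DMA and BOLA-DMB, and BOLA-DQB1 E in the bottom row is dark blue only among arrays outside the low group.

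BOLA-DQB1 E ran the other way. It read 1.44 in AA 7, 1.38 in KA 6, 1.28 in KK 3, 0.79 in KA 8, 0.35 in AA 4 and 0.23 in KA 3. The 20 other arrays fell apart into 10 arrays from -4.42 to -2.64 and 10 arrays from -0.67 to 1.31. With the limit of -2 set in both A and E, 6 of the 26 arrays were below only in A, 10 were below only in E, 10 were below in neither and 0 were below in both. Both arrays left out were below -2 in E, at -4.03 in AA 2 and -4.87 in AA 9. Every one of the 28 arrays thus read above -2 in at least 1 of these BOLA-DQB1 probe sets.

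BOLA-DQB1 D likewise held no low reading in the 6 arrays. It read -0.44 in KA 3 and 0.13 to 0.55 in the other low arrays, against -2.0 to 0.81 in the 20 others. Its lowest readings were -2.0 in KK 2 and -1.59 in AA 1, both arrays of the group that was low in BOLA-DQB1 E.

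**Figure D2:**
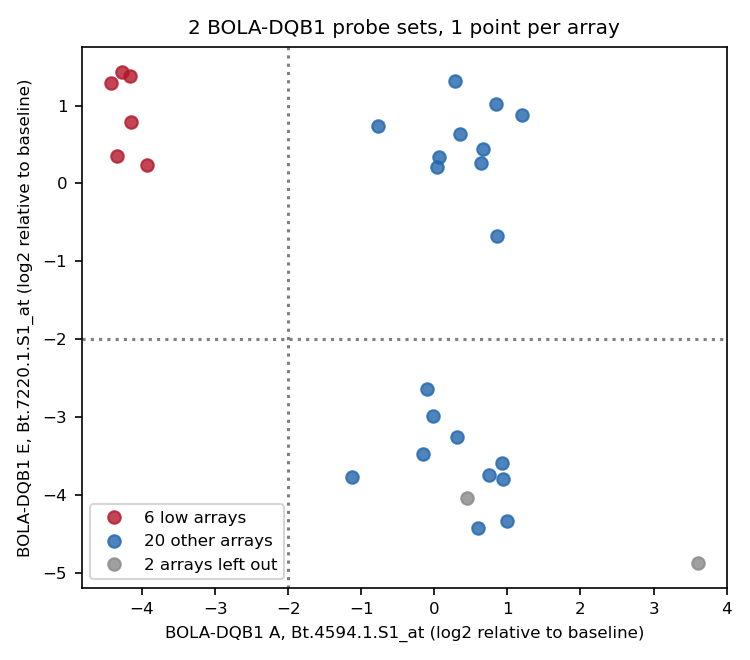
Scatter of the 28 arrays in 2 probe sets for BOLA-DQB1, both in log2 relative to the baseline of the probe set, with dotted lines at -2. The 6 low arrays sit at the upper left, 10 of the others sit below the horizontal line, and no array lies in the lower left field.

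The low arrays differed among themselves in the remaining DQ probe sets. BOLA-DQA5, an alpha chain gene, was at 3.66 in KA 6 and 3.29 in KA 8, and at -0.48 to 0.27 in the other 4 low arrays. Among the 20 others it was above 3 in KK 1, KA 1, KA 9 and KA 13, so 6 compared arrays stood at 3.04 to 4.10 and the rest at or below 0.27. BOLA-DQB, a beta chain gene, was high in the same 6 arrays, at 1.49 to 3.16 against -0.73 to 0.53 in the rest. All 6 of these arrays read 0.21 to 1.38 in BOLA-DQB1 E.

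The probe set listed with several genes was high in a different set of 5 compared arrays, KA 3, KK 2, AA 6, KA 10 and KA 12, at 2.48 to 3.53 against -0.32 to 0.24 in the rest. None of these 5 was among the 6 that were high in BOLA-DQA5. KA 3 was the only low array in it, at 3.37, and KA 3 was also the low array with the highest BOLA-DQA2 B and the lowest BOLA-DQB1 D. KA 10 and KA 12, the only other arrays below -1.5 in BOLA-DQB1 B, were in the same set of 5. The limits that set these high arrays apart were chosen after their values were seen, so the sets are a description. By DQ readings, KA 6 and KA 8 were alike, KK 3, AA 4 and AA 7 had neither high signal, and KA 3 stood by itself. Each low array had 4 or 5 of the 13 DQ probe sets below -2, and each of the 20 others had 0 to 2.

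The remaining class II chains were the first measures that the rule did not use, and none of them passed the test. For BOLA-DRA, the DR alpha chain, the low arrays read 0.18 in AA 7, -0.01 in KA 6, -0.06 in KK 3, -0.13 in AA 4, -0.18 in KA 3 and -0.39 in KA 8. The other 20 ran from -0.82 to 0.96 with a median of 0.08, and all 6 low arrays lay within that range. The difference was -0.13 (95% interval -0.50 to 0.23, limma; exact two-sided permutation p = 0.489). BOLA-DRB3, the DR beta chain, gave -0.11 (-0.48 to 0.26, exact permutation p = 0.572) in probe set B. The lower ends of these intervals were -0.50 and -0.48. The 7 DQ probe sets with differences of -0.73 or lower are tied to the rule, so they stand beside these as a description only.

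BOLA-DRB3 A was less even. It read -1.50 in KA 3 and -1.35 in KK 3 and -0.32 to 0.32 in the other 4 low arrays, against -1.12 to 0.98 in the others. The difference was -0.37 (-0.95 to 0.21, exact permutation p = 0.235). KA 3 and KK 3 lay below every one of the 20 others there, while in BOLA-DRB3 B they read 0.01 and -0.02.

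BOLA-DMA and BOLA-DMB encode the DM pair, which loads peptides onto class II molecules, and BOLA-DOA encodes a chain of DO, which restrains DM. Their differences were -0.10 (-0.46 to 0.26), -0.10 (-0.45 to 0.26) and -0.07 (-0.34 to 0.20), with exact permutation p values of 0.595, 0.611 and 0.627. BOLA-DYA and BOLA-DYB, genes of a class II pair particular to ruminants, differed by 0.05 and -0.03, with exact permutation p values of 0.505 and 0.714. Over these 8 probe sets the smallest Benjamini-Hochberg adjusted value of the exact permutation test was 0.714. Within array numbers 29 to 42 and 43 to 56, the BOLA-DRA difference was -0.19 and -0.07. That of BOLA-DQA2 A, a description only, was -4.63 and -3.96.

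**Figure D3:**
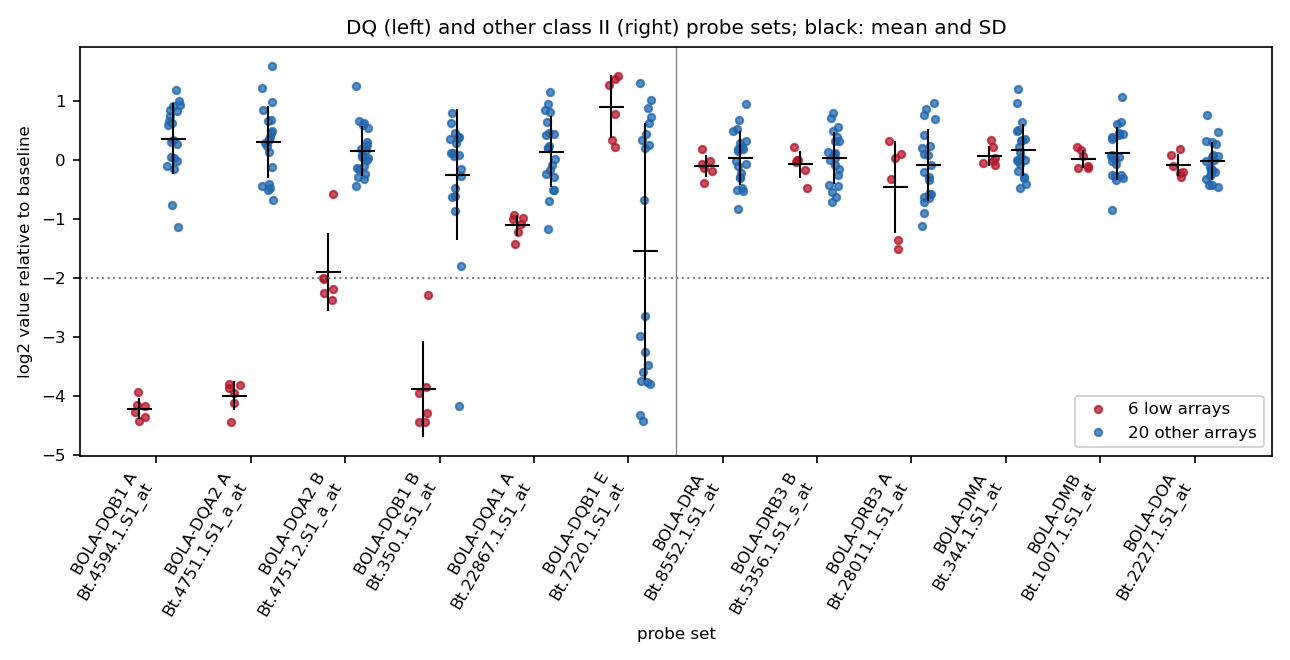
Values of 6 DQ probe sets (left of the grey line) and 6 other class II probe sets (right) in the 6 low and 20 other arrays, as log2 relative to the baseline of the probe set; each point is 1 array, and black bars give the mean and SD. The dotted line is the limit of -2 used in BOLA-DQB1 A; low and other arrays overlap in all 6 probe sets on the right.

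Within the 20 other arrays, 14 class II probe sets without a split of their own were set against BOLA-DQB1 A. For the DQ partners this is a description with no test: BOLA-DQA2 B gave Pearson r 0.521 and Spearman rho 0.660, and BOLA-DQA2 A gave r 0.450 and rho 0.603. Of the 8 probe sets that are not DQ, 0 passed after adjustment over the 14, which count the DQ partners in. An adjustment over the 8 alone was not made, so no relation is called absent. BOLA-DMA, BOLA-DRB3 A, BOLA-DMB and BOLA-DRB3 B gave rho 0.532, 0.525, 0.508 and 0.490. Their adjusted permutation p values were 0.0553 to 0.0603 by rho and 0.206 to 0.224 by r. BOLA-DOA, BOLA-DYB and BOLA-DYA gave rho 0.382, -0.286 and -0.326. BOLA-DRA gave r 0.388 and rho 0.513, with permutation p values of 0.0906 and 0.0218, or 0.211 and 0.0553 adjusted. Without AA 3 and AA 8, the arrays farthest from the median, r was 0.667, 0.737 and 0.547 for BOLA-DQA2 B, BOLA-DQA2 A and BOLA-DRA. Within array numbers 29 to 42 it was 0.559, 0.306 and 0.282, and within 43 to 56 it was 0.743, 0.893 and 0.745, over 10 arrays each. How many of the 14 lay past the threshold by rho, with the DQ partners counted, was not stable. The count was 9 without AA 8, 9 without KK 4, 6 without AA 1 and 0 without AA 5, AA 6, KA 2, KA 5 or KA 9. For the DQ partners these counts are a description.

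Outside the DQ genes no probe set passed the test. By limma, 0 of 24003 (0%) had an adjusted p under 0.05, and the smallest adjusted p was 0.3465. An unadjusted limma p under 0.05 was reached by 619 (2.58%), or by 627 (2.61%) with the DQ probe sets counted. With no difference anywhere, about 1200 of the 24003 would be expected under 0.05, so 619 is fewer than that. The 1 closest to the threshold was ATP2B1, a calcium pump of the plasma membrane: it read -1.25 to -0.38 in the low arrays and -1.29 to 0.71 in the others, a difference of -0.79 (SE 0.18). KA 10 was the lowest of the others at -1.29, and without KA 10 the difference was -0.87 with a limma adjusted p of 0.00165, which passes. It passed in no other setting. KA 10 is also the other array that read as low as the low arrays in BOLA-DQB1 B and C. The other ATP2B1 probe sets differed by -0.08 and -0.12. LOC504773 differed by -0.62 (SE 0.17) and passed only with the mean of immune cell markers as a covariate, at -0.51 and a limma adjusted p of 0.0421.

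The remaining genes with the smallest p values are named as values and none passed. STRAP, a WD40-repeat adaptor protein, gave -0.43, -0.40 and -0.41 in its 3 probe sets. PTPN9, a tyrosine phosphatase, gave -0.34 and 0.01 in 2 probe sets, PIR gave -0.29 with 0.11 and 0.16 in the others, and DNMT3A, a DNA methyltransferase, gave -0.37 with 0.09 and -0.02. Higher values were 0.26 for USH1C, 0.25 for PGR, the progesterone receptor, 0.24 for USP18, which removes ISG15 from proteins, 0.23 for ZNF667, 0.23 for NSRP1, 0.20 for ESF1, 0.20 for FBXO15 and 0.17 for LOC100616526. Other probe sets of the higher genes gave 0.08, 0.12 and 0.15 for USP18, 0.11 for ZNF667, -0.07 for NSRP1 and 0.01 for FBXO15. The probe sets of STRAP thus gave like values, while those of PTPN9, PIR, DNMT3A, NSRP1 and FBXO15 did not.

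None of the genes next to the DQ genes passed the test. In the order of the RefSeq gene table of ARS-UCD2.0, chromosome 23 carries BOLA-DQA2, BOLA-DQB, BOLA-DQA5, BOLA-DQB1, BOLA-DRB3 and BOLA-DRA close together, while BOLA-DYA, BOLA-DMB, BOLA-DMA and BOLA-DOA lie in a second block with 372 genes between. Taking 40 measured genes on either side of BOLA-DQB leaves 77 that are not DQ genes. Of these 0 passed the adjusted test, 43 were lower and 34 higher, and the median difference was -0.02, against 4741 lower and 4409 higher and a median of -0.00 over 9150 genes with 1 probe set each. At an unadjusted p under 0.05, 1 neighbour was lower and 0 higher, where 81 (0.885%) of all genes were lower and 107 (1.17%) higher. The neighbour was PBX2, a homeobox gene, at -0.31 (SE 0.12). The nearest measured genes outside the class II block were ELOVL5, a fatty acid elongase, at 0.20 (-0.23 to 0.64) and LOC525599 at -0.03 (-0.41 to 0.35).

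**Figure D4:**
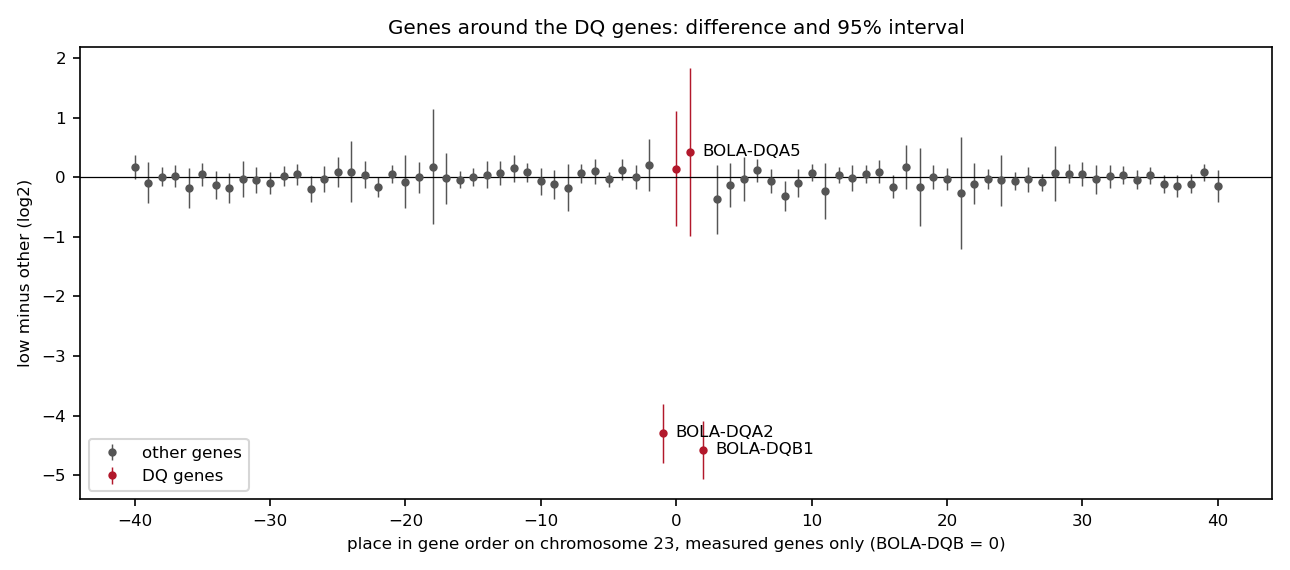
Difference of the 6 low minus the 20 other arrays, in log2 with the 95% interval of limma, for measured genes in gene order on chromosome 23, counted from BOLA-DQB at 0; each gene has 1 probe set. BOLA-DQA2 and BOLA-DQB1 lie at -4.30 and -4.58, BOLA-DQA5 lies at 0.43 with a wide interval, and the 77 other genes lie between -0.37 and 0.20. The BOLA-DQB1 point is probe set A, which chose the arrays, so the DQ points and their intervals are a description with no test. Of the BOLA-DQB1 probe sets not drawn, B and C differed by -3.64 and -2.69, and D and E by 0.42 and 2.45.

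No gene that acts on class II molecules passed the test. Of 12 measured genes of loading and regulation 0 passed, 6 were lower and 6 higher, and the median was -0.02. Cathepsin S (CTSS), which trims the invariant chain, differed by -0.19, legumain (LGMN) by -0.14, RFXANK, a subunit of the factor that binds class II promoters, by 0.14, and the ubiquitin ligase MARCHF8 by -0.09. CD74, CIITA and BOLA-DOB were not analysed here. Class I genes gave 0 passing of 17 and a median of -0.11, with 14 lower and 3 higher, among them MR1, which presents metabolites, at -0.29. Beta-2 microglobulin (B2M), the light chain of class I, differed by -0.02, -0.06 and -0.12 in its 3 probe sets. All 22 class I heavy chain probe sets stayed between -0.50 and 0.52, and 0 passed. BOLA-N, a class I gene with a wide spread, read -1.62 to 1.87 in the low arrays and -1.74 to 4.88 in the others, a difference of -0.07.

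Markers of the cells that carry class II molecules did not pass the test either. Of 18 macrophage and monocyte markers 0 passed and 15 were lower, with a median of -0.08. FCER1G, a signalling chain of Fc receptors, differed by -0.23, and CD86, a costimulatory ligand, by -0.15. The mean of the 18 markers was -0.32 to 0.17 in the low arrays and -0.52 to 0.94 in the others, so the low arrays lay inside the range of the rest. Of 7 dendritic cell markers all were lower and 0 passed, with a median of -0.04. Their mean was -0.13 to 0.11 in the low arrays and -0.16 to 0.72 in the others.

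B and plasma cell markers had the lowest median of the cell type lists, -0.18 over 10 genes, with 7 lower, 3 higher and 0 passing. MZB1, a chaperone of antibody secretion, differed by -0.62 (SE 0.32), and JCHAIN, the joining chain of secreted IgA and IgM, by -0.63 (SE 0.39). JCHAIN read -3.01 in KA 8 and -1.42 in KA 6 but 0.20 in KK 3 and 0.02 in AA 7, so the low arrays did not share it. CD79A, a B cell receptor chain, differed by -0.18 at an unadjusted limma p of 0.0443, which did not pass after adjustment. The mean of the list was -0.31 to 0.06 in the low arrays and -0.29 to 0.90 in the others. The 19 T and NK cell markers had a median of -0.01 with 11 lower and 8 higher.

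Interferon genes were high in 1 low array. Of 14 genes of the type I interferon response 12 were higher and 0 passed, with a median of 0.13. The list mean was 1.37 in KA 8 and -0.09 to 0.29 in the other 5 low arrays, against -0.24 to 0.59 in the others, and without KA 8 the median was -0.07. The difference in ISG15, a ubiquitin-like modifier, was 0.54 with KA 8 and 0.13 without it. In MX1, an antiviral GTPase, it was 0.62 and 0.12, in MX2 0.33 and -0.06, and in RSAD2 0.36 and -0.10. The interferon gamma list, which covers the main inducer of class II genes, had a median of -0.09 over 10 genes with 8 lower and 0 passing. CXCL10 was the lowest of it, at -0.59 (SE 0.40), with -0.52 to -0.07 in the low arrays and -0.74 to 3.16 in the others.

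**Figure D5:**
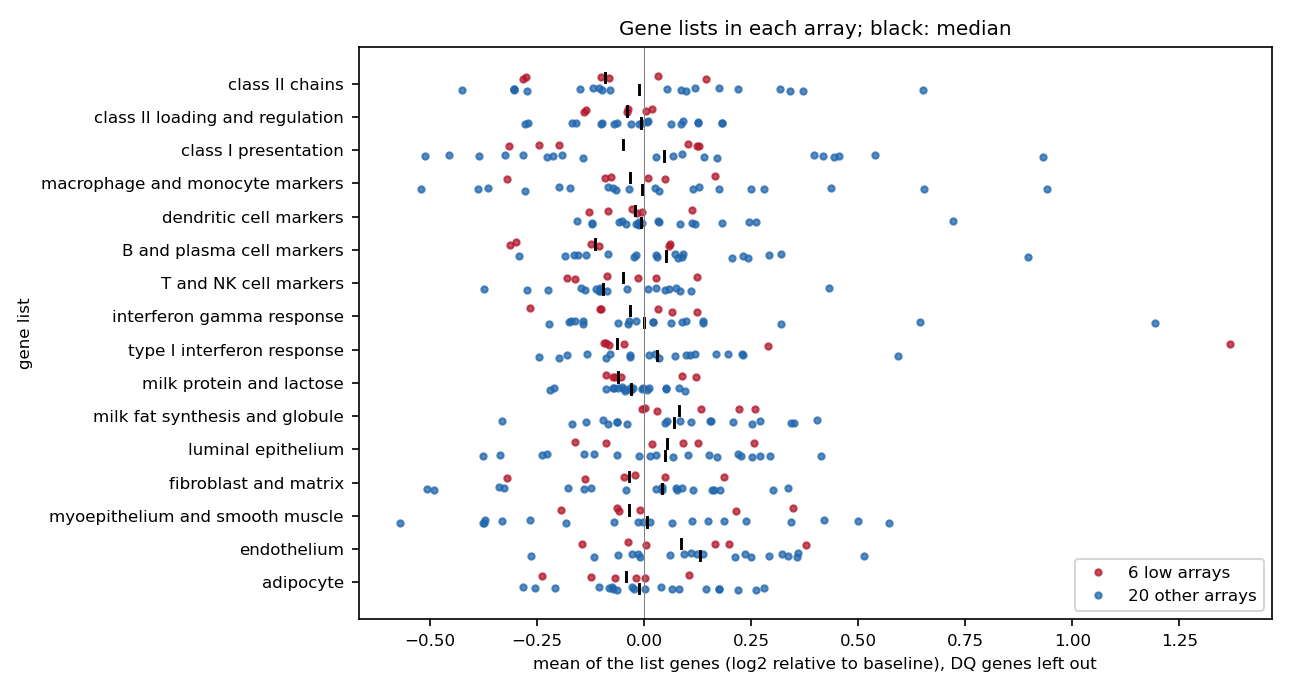
Mean of the genes of each list in each array, in log2 relative to the baseline of each probe set and with the DQ genes left out, for the 6 low and 20 other arrays; black ticks are medians. Low and other arrays overlap in every list, and the low array at 1.37 in the type I interferon response is KA 8.

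No gene of milk synthesis passed the test. The 10 milk protein and lactose genes had a median of 0.04 and 0 passed. Alpha-lactalbumin (LALBA), the regulatory subunit of lactose synthase, differed by 0.04 (SE 0.05), and beta-lactoglobulin (PAEP), the main whey protein, by 0.05 (SE 0.06). Of 18 genes of milk fat synthesis and the milk fat globule 0 passed and the median was 0.02. GPAT4, which starts glycerolipid synthesis, differed by 0.54 (SE 0.19) and by 0.33 in its other probe set, at unadjusted limma p values of 0.00913 and 0.0625 that did not pass. It read -0.27 in KA 3 and 0.66 to 0.98 in the other 5 low arrays, against -0.77 to 0.92 in the 20 others.

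The stromal and epithelial lists gave like values. Medians were -0.04 over 12 luminal epithelial genes, -0.01 over 17 of fibroblasts and matrix, 0.03 over 11 of myoepithelium and smooth muscle, -0.06 over 11 of endothelium and -0.07 over 7 of adipocytes, with 0 passing in each. KRT8, a luminal keratin, differed by 0.27 (SE 0.11) and was the only one of these with an unadjusted limma p under 0.05, at 0.0191. COL1A2, a collagen chain, differed by -0.28 (SE 0.16) and DES, the muscle filament desmin, by 0.35 (SE 0.21).

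In the DQ probe sets that followed the rule's probe set, the low arrays had the lower mean in each DGAT1 genotype, as a description. In BOLA-DQA2 A the difference of low minus other arrays was -4.73 in AA, -3.90 in KA and -4.61 in KK, where 1 low array stood against 3. In BOLA-DQA2 B the differences were -2.42, -1.61 and -2.66, and in BOLA-DQA1 A -1.71, -0.86 and -1.48. Other DQ probe sets did not share a lower mean in every genotype: BOLA-DQA5 differed by -0.05, 1.4 and -1.7, and BOLA-DQB1 E by 3.07, 2.12 and 2.08. A test of whether the difference of low minus other arrays changed between KA and AA rested on 2 low AA and 3 low KA arrays. By limma it called 0 of 24016 probe sets (0%), with a smallest adjusted p of 0.137. At an unadjusted p under 0.05 there were 477 probe sets. With so few low arrays, this result cannot show that the genotypes are alike. The 24016 include the DQ probe sets, for which the result is a description only. KK had too few arrays for its own contrast.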

How the data were processed

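Mammary biopsies of 28 cows were measured on 1 array each. The authors used Bioconductor 2.7 and R 2.13, per the labels' protocols. RMA and GCRMA are both named, per the submitters' processing notes, without saying which was applied to this table. What the authors deposited is a log2 value for each probe set, around a baseline of its own that no source used here describes, so absolute levels are lost. The number of arrays limits the precision.

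Of 24128 probe sets 112 controls were left out and 24016 tested, without a filter on dim probe sets. Platform annotation gave 13292 probe sets 1 gene symbol, 86 several and 10638 none, and 13263 were matched to the RefSeq gene table by gene ID. No build is named for the platform, so no coordinates are given. For lists, 1 probe set per gene was taken: the brightest class that the rounding steps of the values give (4027 bright, 13566 intermediate, 6423 dim), then the plainest probe set type. The 16 gene lists and the neighbours are described by counts and medians.

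The low and other arrays were compared with limma 3.58.1 in R 4.3.3 (lmFit, eBayes, Benjamini-Hochberg over all tested probe sets, threshold 0.05), without covariates. Single class II probe sets also had exact permutation tests over all 230230 assignments, and correlations had 100000 permutations (Python 3.11.15, NumPy 2.4.6). Scripts were tested on simulated data. The members, the rule and the lists were chosen with earlier results of these data known. Named genes are up to 15 called in each direction, filled to 20 by smallest p, then all class II and B2M probe sets. Class I heavy chain probe sets with 1 gene symbol (BOLA-N and BOLA) are named too, but not the 20 listed to several class I genes. Of each list, at most 4 genes with the smallest p were added. AA 2 and AA 9 entered only where stated. Alternatives were genotype, array number range or immune marker mean in the fit, quantile normalization, median centring, array weights, robust variances, other limits and thresholds, no dim probe sets, means over probe sets, single genotypes, all 28 arrays, and each array left out.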

Additional observations from a re-analysis of the deposited data

Results flagged for a closer look

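Of 99 named probe sets, 13 held 1 of the 6 low arrays far from the other 5. The gap to the nearest of the other low arrays was over 0.625 of the whole range in each of the 13. Among independent probe sets chance flags about 1 in 20 groups, or 4.95 of 99. The 99 are not independent: they include probe sets of the same gene, genes of a shared response and genes picked by p value. The count of 13 can therefore not be read as above chance. Among DQ probe sets, KA 3 stood apart at -0.57 in BOLA-DQA2 B, where the rest read -2.37 to -2.0, and at 3.37 in the probe set listed with several genes, where the rest read -0.27 to -0.00. AA 4 stood apart at -2.29 in BOLA-DQB1 B, where the rest read -4.44 to -3.85.

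KA 8 was apart in 5 probe sets, all interferon-induced genes: ISG15 at 2.69, MX1 at 3.18, MX2 at 2.28, RSAD2 at 2.69 and USP18 at 0.58. The other low arrays reached at most 0.77, 0.80, 0.14, 0.39 and 0.17 in them. AA 7 was apart in CD86 at 0.46 (rest -0.30 to -0.01) and FCER1G at 0.32 (rest 0.01 to 0.11). KK 3 was apart in CD83 at -0.32 (rest 0.02 to 0.22) and KRT14 at 1.38 (rest -0.22 to 0.35). KA 3 was also apart in GPAT4 at -0.27 (rest 0.66 to 0.98).

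AA 9, an array left out of the comparison, read 3.60 in BOLA-DQB1 A, above the highest of the 20 other arrays at 1.20.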

How the results depend on the processing

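No paired analysis was possible because the replicate numbers only name the arrays. None of the 6 values called in the main fit changed sign. All 6 are DQ probe sets tied to the rule, and BOLA-DQB1 A chose the arrays, so this is a description only. Among values with no call the sign turned in at least 1 setting for 13 of 17 list medians and 33 of 99 named probe sets, so these small differences have no settled direction. The count of called probe sets, 6, was 5 to 7 with each array left out and 2 within KA, where BOLA-DQB1 B and C, BOLA-DQA2 B and BOLA-DQA1 A lost their calls at -3.36, -2.51, -1.61 and -0.86. BOLA-DQA1 A lost its call in 24 of 39 settings. The count outside the DQ genes, 0, was 1 with the immune marker mean as a covariate (LOC504773), 1 within AA (a probe set without a gene symbol, at 2.82) and 0 to 1 with each array left out. The smallest adjusted p ran from 0.000355 to 0.99999. Leaving the DQ probe sets out before the adjustment, chosen after seeing the data, gave 0. The difference of the split between KA and AA, 0 called, gave 2 with quantile normalization and 0 to 1 with each array left out, 1 without KA 13. The cause was not tested. By rho, 2 of 14 relations lay past the threshold, both of BOLA-DQA2 and so a description. The count, DQ partners included, was 1 with quantile normalization, 5 with centred arrays and 0 to 9 with each array left out, and the cause was not tested. List medians kept within the spread in 659 of 663 values. The others were 0.14 for milk protein and 0.26 for milk fat with all 28 arrays, 0.016 for the chromosome 23 neighbours within AA, and a range of -0.071 to 0.175 for the type I interferon list with each array left out, -0.071 without KA 8. Values of the 99 named probe sets were counted as kept in 3913 cases, moved further than the spread between arrays in 18 and passed the threshold in 2. For DQ probe sets only the size of the move was judged, with 504 cases kept and 3 moved. The lost calls of BOLA-DQA1 A are therefore among the 3913. The other named probe sets counted as kept also stayed on their side of the threshold. Absolute level is lost, so signal over background limits every DQ reading near the bottom of its range by an unknown amount.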
